A study of Mus musculus with 102 samples.

Results

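Calorie restriction was compared with control feeding in the epidermal stem cells of aged mice at a single time of day, ZT20. Zeitgeber time (ZT) counts the hours from lights on. The comparison was made of 10 arrays out of the 53 adult and 49 aged arrays of the series, chosen by their labels for age, diet and time point: 5 from mice on calorie restriction (CR) and 5 from mice on control diet. All mice, controls included, were Per1-Venus BAC transgenic animals on a C57B6/J background, in which a fluorescent protein reports on Per1, a gene of the clock. The aged mice were 83 to 97 weeks old. Control mice ate the control diet ad libitum. CR mice were given 30% less food than the ad libitum intake for 25 weeks, after 3 weeks of adaptation in which food was reduced by 10% per week. The other arrays used here were 39 of aged mice at ZT0, ZT4, ZT8, ZT12 and ZT16, and 9 of adult mice at ZT20, of which 5 were on CR and 4 on control diet.

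Each array was labelled as epidermal stem cells from epidermis. How the cells were isolated is not given in the sources used here. The study design describes 4 mice per time point and diet, while 5 arrays per diet were analysed at ZT20. On each collection day 1 mouse of each diet was killed, all at one time point, and the labels do not tie an array to a day or an animal. The p-values therefore rest on the spread between arrays. That spread was taken from the whole series, unless a fit of the 10 arrays alone is named. Keratinocyte identity was checked on the basal markers: Krt14 lay between 12.36 and 12.52 and Krt5 between 12.22 and 12.45 on the log2 scale on all 10 arrays, close to the top of the array range of 13.1. The mean level over 12 tested basal epidermal genes was 11.29 to 11.42 on the CR arrays and 11.25 to 11.49 on the control arrays. Of the markers of other skin cells, 8 of 10 Langerhans cell genes, 8 of 9 T cell genes, 3 of 8 melanocyte genes and 5 of 10 fibroblast genes on the array passed the filter on dim genes. Their mean levels were 6.45 to 6.82, 5.61 to 5.88, 6.64 to 7.08 and 5.30 to 5.59. No gene of these lists was called, but only 2 of 13383 genes (0.0149%) were called at all. The lack of calls therefore does not show equal shares of these cells. Under CR 7 of 8 Langerhans cell genes had a lower mean (median -0.10) and 4 of 8 T cell genes (0.0005). For melanocyte genes it was 2 of 3 (-0.14), and for fibroblast genes 3 of 5 (-0.016). Xist exceeded the Y-linked genes on 2 of 5 CR and 3 of 5 control arrays, so both groups held both sexes. Array medians at ZT20 ran from 5.56 to 5.64.

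The circadian clock is a feedback loop of transcription. Clock or Npas2 and Arntl (Bmal1) form the activator that binds E-boxes. The activator switches on Per and Cry genes, whose products inhibit it, and the nuclear receptor Nr1d2, which represses Arntl. Tef, Hlf and Dbp are the PAR bZIP factors, outputs of the loop that act through D-boxes, where Nfil3 opposes them. In epidermal stem cells the clock is known to time DNA replication, metabolism and differentiation over the day.

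Among 13383 tested genes, 2 passed limma's test at a Benjamini-Hochberg adjusted p under 0.05, which is 0.0149% of the genes. Both were lower under CR, and both belong to the clock: the output factor Tef and the repressor Per2. No gene was called higher. At an unadjusted p under 0.05 there were 266 genes (1.99%), 112 of them higher (0.837%) and 154 lower (1.15%), where chance alone gives 669. The values of the 5 CR arrays and the 5 control arrays did not overlap for 121 genes (0.904%), of which 37 were higher (0.276%) and 84 lower (0.628%) under CR. Among random splits into 5 and 5 arrays, a share of 0.00794 leaves no overlap. The median difference over all tested genes was -0.0030 on the log2 scale.

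One array stood apart, and both calls were lost without it. The calls also depended on other arrays: leaving out 1 array at a time, Tef and Per2 each passed in 7 of 10 fits. Control replicate 3 had 241 genes more than 1 log2 unit from the mean of the other 9 arrays. Control replicate 1 had 92 such genes, and the other 8 arrays had 10 to 44. Without control replicate 3 no gene passed limma's test (smallest Benjamini-Hochberg adjusted p 0.999933), and 167 genes (1.25%) had an unadjusted p under 0.05. The groups then did not overlap for 206 genes (1.54%), and for 485 (3.62%) without control replicates 1 and 3. With fewer arrays more genes separate by chance, at a share of 0.0159 for 5 against 4 arrays. These counts therefore cannot be compared across the settings. A fit of the 10 arrays alone, which takes the spread from them and not from the whole series, called no gene and had 567 (4.24%) at an unadjusted p under 0.05. The profile of 16 clock genes on control replicate 3 was nearest to the mean of the aged control arrays at ZT16, at a root mean square distance of 0.34 log2 units. Its distance from the other 4 control arrays of its own time was 0.97. The other 9 arrays were each nearest to ZT20 when that mean was taken without control replicate 3 and, for a control array, without that array itself. Control replicate 3 also stood apart outside the clock. The interferon response gene Irf7 was at 7.78 there and at 5.88 to 6.47 on the other 9 arrays. The mean level of the interferon response list was 7.19 there and 6.58 to 6.93 on the other 9. Whether control replicate 3 was collected or labelled at another time was not tested.

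**Figure D1:**
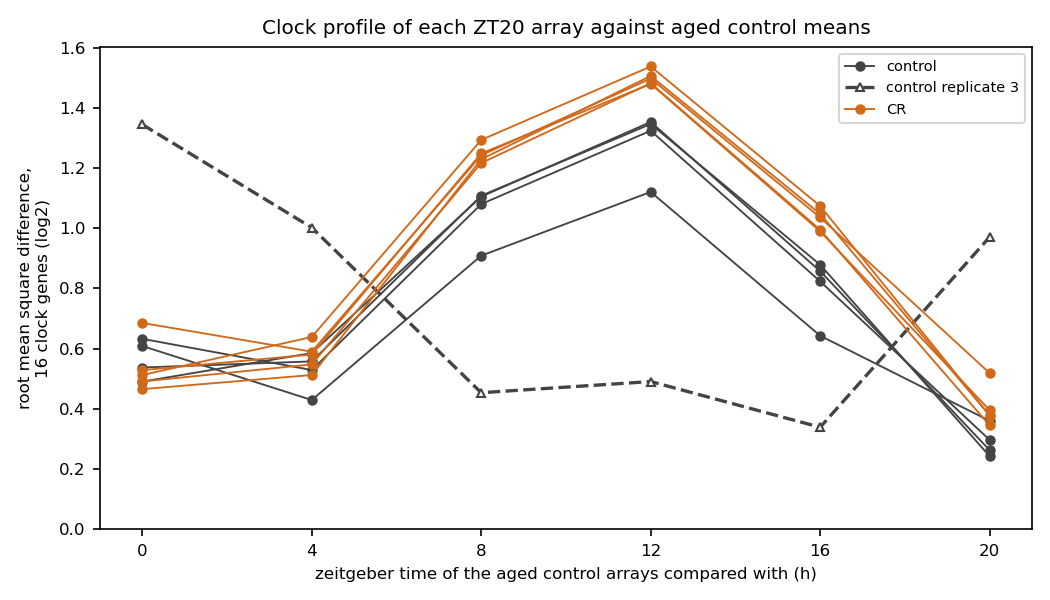
Root mean square log2 difference over 16 clock genes (vertical axis) between each ZT20 array of aged mice and the mean of the aged control arrays at each zeitgeber time in hours (horizontal axis); the ZT20 mean leaves out control replicate 3 and, for a control array, that array. The dashed line of control replicate 3 has its minimum of 0.34 at ZT16, and the 9 other arrays have theirs at ZT20.

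Tef (thyrotroph embryonic factor) lies on chromosome 15 at chr15:81802673-81826863 in build GRCm38.p6. Its level on the CR arrays was 7.80, 7.82, 8.13, 8.21 and 8.05 for replicates 1 to 5, and on the control arrays 8.77, 8.40, 9.53, 8.38 and 8.57. All 5 CR arrays lay below all 5 control arrays, and control replicate 3 was the highest. The means were 8.00 ± 0.18 (SD, n = 5) under CR and 8.73 ± 0.47 (SD, n = 5) on control diet. Tef fell by 0.73 on the log2 scale (SE 0.14, 95% interval -1.0 to -0.45, limma with Benjamini-Hochberg adjusted p 0.0128), so that the control level was 1.66-fold the CR level. Without control replicate 3 the difference was -0.53 (95% interval -0.79 to -0.27), not called, and the groups still did not overlap. The second Tef probe set gave -1.08, and -0.82 without that array.

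Per2, a period protein that inhibits the Clock and Arntl activator, lies at chr1:91415977-91459351. The CR arrays read 6.29, 6.20, 5.80, 6.21 and 5.87, and the control arrays 6.99, 6.78, 7.79, 6.65 and 6.46. Again no CR array reached the lowest control array, and control replicate 3 was the highest. The means were 6.08 ± 0.22 (SD, n = 5) under CR and 6.93 ± 0.51 (SD, n = 5) on control diet. Per2 fell by 0.86 (SE 0.17, 95% interval -1.19 to -0.53, limma with Benjamini-Hochberg adjusted p 0.0132), so that the control level was 1.81-fold the CR level. Without control replicate 3 the difference was -0.65 (95% interval -0.97 to -0.32), not called, and again the groups did not overlap. The second Per2 probe set gave -1.71, and -1.38 without that array.

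The promoters of the clock genes were read for the motifs of the loop. RefSeq promoters matched 14 of the 16 tested clock genes, in 19 windows of 250 bases before a start site. Per2 and Bhlhe40 had no matching promoter and were not searched. The E-box, CACGTG, occurred in 4 genes (Ciart, Cry1, Per1 and Tef) and 5 of the 19 windows. The E-box variant CACGTT or AACGTG occurred in 2 windows (Cry1 and Cry2), and the D-box core TTATGTA or its complement TACATAA in 1 (Per3). Both strands were searched, and none of these motifs contains another. Over 32851 promoter windows of the same length the shares were 6.02% for the E-box, 3.85% for its variant and 2.34% for the D-box core. Tef and Per3 are shown as the called output factor with an E-box and the period gene with the D-box core. The windows are chr15:81802423-81802672 on the plus strand and chr4:151044666-151044915 on the minus strand in GRCm38.p6, with capitals for the motifs. The E-box of the Tef window shown starts 127 bases before its start site, and the second Tef window, not shown, holds one 138 bases before its own. In the Per3 window the D-box cores start 205 and 158 bases before the start site.
Tef: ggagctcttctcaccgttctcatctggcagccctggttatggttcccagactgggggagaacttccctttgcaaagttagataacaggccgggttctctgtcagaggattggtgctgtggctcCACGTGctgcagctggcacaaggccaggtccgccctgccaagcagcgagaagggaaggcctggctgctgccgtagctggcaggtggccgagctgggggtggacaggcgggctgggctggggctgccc
Per3: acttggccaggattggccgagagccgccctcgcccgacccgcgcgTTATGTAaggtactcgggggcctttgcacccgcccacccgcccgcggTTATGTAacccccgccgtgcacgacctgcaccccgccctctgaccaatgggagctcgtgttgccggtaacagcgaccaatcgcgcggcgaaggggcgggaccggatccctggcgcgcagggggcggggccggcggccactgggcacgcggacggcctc
A match describes the letters in this window only, and binding was not measured.

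Of the 10 listed repressors, 9 were on the array and 8 were tested. Nr1d1 was not analysed, so the 8 are not the full set of repressors. Per2 alone was called, yet all 8 had a lower mean under CR. Their median difference was -0.44, and -0.30 without control replicate 3, with 8 of 8 again lower, while 49% of all genes had a higher mean under CR. Per3, another period gene, read 6.05, 6.07, 6.23, 6.54 and 6.23 under CR and 6.50, 6.23, 8.79, 6.58 and 7.16 on control diet. The groups overlapped, and control replicate 3 was more than 1 log2 unit above every other array. The Per3 difference was -0.83 (95% interval -1.40 to -0.26), and -0.39 (-0.93 to 0.14) without that array. Other Per3 probe sets gave smaller differences of -0.60 to -0.18. Cry2, a cryptochrome that inhibits the activator, differed by -0.48 and by -0.29 without control replicate 3. Its CR arrays lay between 7.35 and 7.80 and its control arrays between 7.72 and 8.79. Nr1d2 (Rev-erb beta) differed by -0.48, and by -0.31 without that array, with CR arrays between 7.30 and 8.16 and control arrays between 7.68 and 8.93. The differences of Bhlhe40, a repressor at E-boxes, Cry1, Ciart and Per1 were -0.41, -0.19, -0.14 and -0.09, and their 95% intervals all spanned 0. For Per1, whether the probe set also reads the Per1-Venus transgene was not tested.

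The output factors were lower in 3 of 3, while a wider list of clock-controlled output genes was mixed, with 5 of 11 higher, 6 lower and a median of -0.08. Besides Tef, Hlf read 8.60, 8.26, 8.97, 8.51 and 8.71 under CR and 9.06, 8.82, 9.53, 8.83 and 9.12 on control diet, a difference of -0.46 (95% interval -0.81 to -0.12). CR replicate 3 lay above 2 control arrays. Without control replicate 3 the Hlf difference was -0.35 (-0.71 to 0.01). Dbp read 5.98, 5.96, 5.79, 5.58 and 5.90 under CR and 5.67, 6.21, 8.16, 6.17 and 6.04 on control diet. Its difference of -0.61 (95% interval -1.16 to -0.05) became -0.18 (-0.70 to 0.34) without control replicate 3, so most of it lay in that array. Over repressors and output factors together 11 of 11 were lower, with a median of -0.48, and of -0.31 without control replicate 3. These 11 genes come from the same arrays, and 2 of them, or 0 without control replicate 3, passed the test.

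Of the activators, 4 were tested and none was called. The 95% interval spanned 0 for Arntl at 0.29, Clock at 0.17, Npas2 at 0.09 and Rora, a nuclear receptor that activates Arntl, at -0.06. A second Npas2 probe set gave 0.50, and 0.20 without control replicate 3, while other Clock probe sets gave -0.06 to 0.12. Arntl lay between 8.93 and 9.36 under CR and between 8.27 and 9.52 on control diet, so the CR arrays sat inside the control range. Nfil3, a repressor that opposes the PAR bZIP factors, was not counted among the 8 repressors. It had been placed in the activator list, which thus held 5 tested genes, and was not called at -0.41. It read 8.53, 8.54, 7.93, 8.11 and 8.27 under CR and 8.63, 8.92, 8.09, 8.89 and 8.91 on control diet. Here control replicate 3 was the lowest control array, and without it the groups did not overlap, with a difference of -0.56 (95% interval -1.11 to -0.0064).

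**Figure D2:**
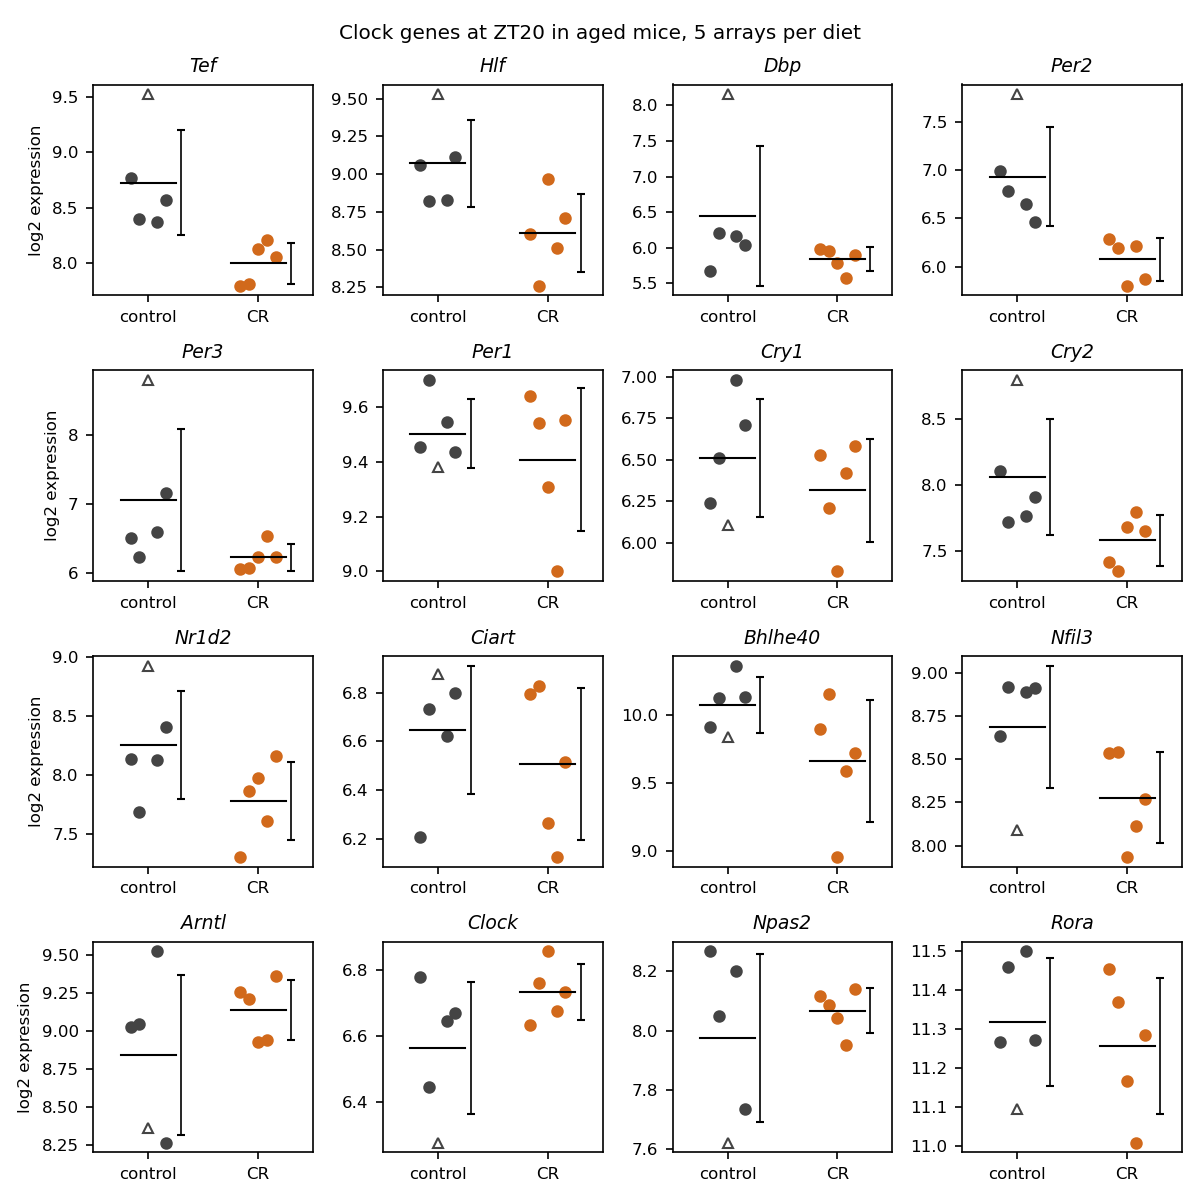
Log2 expression of 16 clock genes on the 5 control (grey) and 5 CR (orange) arrays of aged mice at ZT20; horizontal bars are group means, vertical bars 1 SD, and the open triangle is control replicate 3. Tef and Per2 have no overlap between the diets, and the triangle is the highest control value for Tef, Hlf, Dbp, Per2, Per3, Cry2, Nr1d2 and Ciart.

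The sphingosine kinase Sphk2 and the aldehyde dehydrogenase Aldh3a1 came next in order of p, and neither passed the threshold. Sphk2 read 5.93, 5.69, 6.29, 6.11 and 6.35 under CR and 6.61, 6.81, 9.59, 6.53 and 7.39 on control diet. The groups did not overlap, and control replicate 3 was far above the rest. The difference was -1.31 (SE 0.29, limma with Benjamini-Hochberg adjusted p 0.0967), and -0.76 without that array. The Sphk2 locus at chr7:45709463-45718002 overlaps Dbp at chr7:45705100-45710203 in GRCm38.p6, and a second Sphk2 probe set gave 0.13, so this value cannot be assigned to Sphk2 alone. Aldh3a1 read 9.47, 9.25, 9.80, 9.64 and 8.86 under CR and 10.46, 10.34, 10.32, 9.99 and 10.24 on control diet. The groups did not overlap, and the difference of -0.87 (limma with Benjamini-Hochberg adjusted p 0.748) was -0.86 without control replicate 3.

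The clock differences at ZT20 were set beside the other times of the aged mice. On control diet the mean of Tef was 9.54 at ZT12, 9.40 at ZT16 and 8.73 at ZT20. Under CR it was 9.69 at ZT8, 9.34 at ZT12, 8.81 at ZT16 and 8.00 at ZT20. The highest mean thus lay at ZT12 in controls and at ZT8 under CR. CR minus control for Tef was 0.35, 0.93, 0.40, -0.20 and -0.59 from ZT0 to ZT16, positive at the first 3 times and negative from ZT12 on. For Per2 the same differences were 0.06, 0.54, 0.92, 0.07 and -0.91. The diet effect at ZT20 minus the mean of the effects at the other 5 times was -0.91 for Tef (SE 0.15, limma with Benjamini-Hochberg adjusted p 0.0011). For Per2 it was -0.99 (SE 0.19, limma with Benjamini-Hochberg adjusted p 0.0072). These were the 2 genes called in that comparison (0.0149% of 13383), and 178 genes (1.33%) had an unadjusted p under 0.05. Without control replicate 3 no gene was called. The effect cannot be read as particular to ZT20, since the Tef and Per2 differences at ZT16 were -0.59 (SE 0.15) and -0.91 (SE 0.19). The ZT16 control group has a limit. Its replicate 3 had the lowest mean signal of all arrays, at 6.03. On that array Xist exceeded the Y-linked genes by only 0.79, a value between those of the 2 sexes. It also enters the ZT16 mean to which the profile of ZT20 control replicate 3 was nearest, and its influence was not tested.

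Over the 11 repressors and output factors, the median of CR minus control was 0.10 at ZT0, with 8 of 11 higher. It was 0.56 at ZT4 with 10 of 11 higher and 0.33 at ZT8 with 8 of 11 higher. It was -0.20 at ZT12 and -0.59 at ZT16, with 9 of 11 lower at each, beside -0.48 at ZT20 with 11 of 11 lower. The controls at one time enter that time only, so these values do not share arrays.

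**Figure D3:**
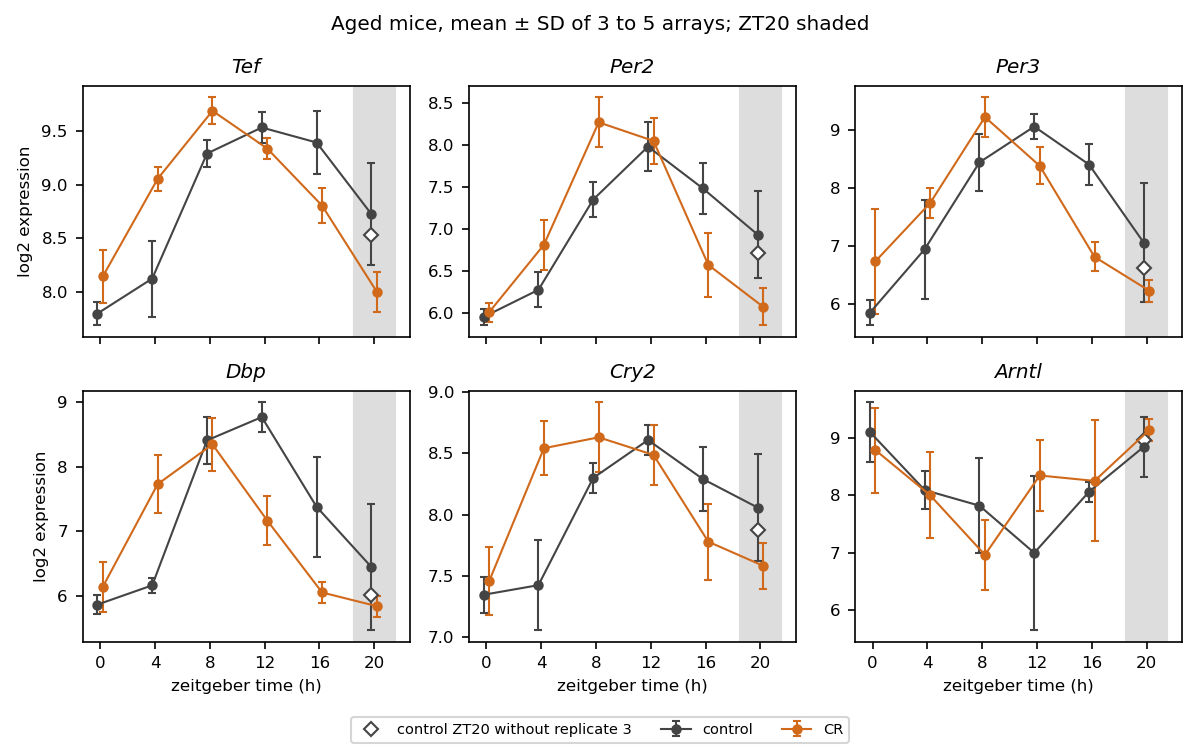
Mean log2 expression ± SD of 6 clock genes over zeitgeber time in hours in aged mice on control diet (grey) and CR (orange), 3 to 5 arrays per point, with ZT20 shaded and the control mean without replicate 3 as an open diamond. The control means of Tef, Per2, Per3 and Cry2 lie above the CR means at ZT16 and ZT20 and below them at ZT4 and ZT8.

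Adult mice of 47 to 57 weeks at ZT20 were the second comparison. No gene was called (112 genes, 0.837%, at an unadjusted p under 0.05). Tef differed by -0.35 (SE 0.15) and Per2 by -0.10 (SE 0.18), and of the 11 repressors and output factors 10 were lower, with a median of -0.20. The difference of the diet effects, aged minus adult, passed the test for no gene of 13383 (79 genes, 0.59%, at an unadjusted p under 0.05). Per2 had the smallest p, with -0.76 (SE 0.24, 95% interval -1.24 to -0.27, unadjusted p 0.0027). For Tef the difference was -0.37 (95% interval -0.77 to 0.02). Next in order of p were the mitotic kinesin Kif14 at 0.41 (SE 0.13), the kinase Nim1k at 1.38 (SE 0.45) and Parpbp, an interactor of PARP1, at 0.87 (SE 0.29), each more positive in aged mice. Their aged differences were 0.18, 0.70 and 0.40, and their adult differences -0.23, -0.68 and -0.47.

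**Figure D4:**
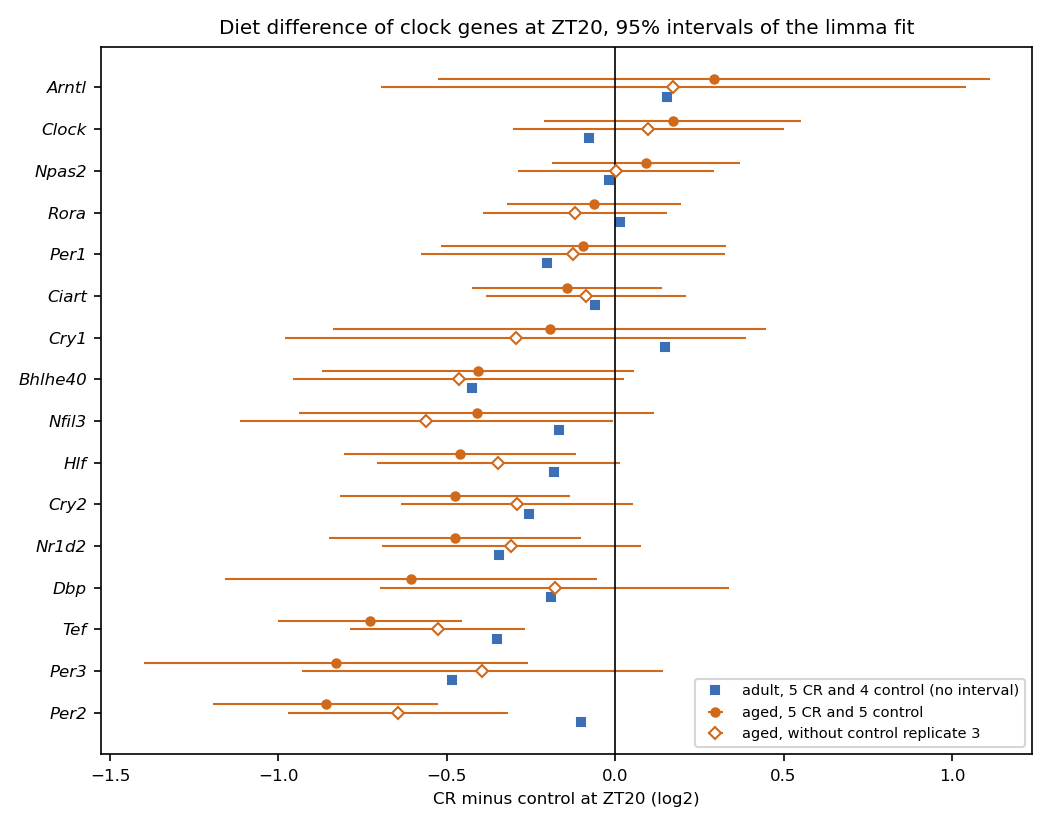
CR minus control at ZT20 on the log2 scale for 16 clock genes in aged mice with 95% intervals of the limma fit (filled circles, all 10 arrays; open diamonds, without control replicate 3) and in adult mice (squares, no interval drawn). With all 10 arrays the aged interval stays below 0 for Per2, Per3, Tef, Dbp, Nr1d2, Cry2 and Hlf; without control replicate 3 it does so for Per2, Tef and Nfil3.

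No gene of the 38 lists other than repressors and output factors passed the test, and for each of these lists the values are differences that were not called. In cholesterol synthesis, 14 of 14 tested genes had a higher mean under CR, with a median of 0.29. Hmgcs1, which makes HMG-CoA, read 9.19, 9.20, 8.15, 8.82 and 8.91 under CR and 7.51, 7.90, 7.18, 8.70 and 8.09 on control diet. The groups overlapped, and the difference was 0.98 (95% interval 0.22 to 1.74). Idi1, an isomerase of the same pathway, differed by 0.89 (95% interval 0.20 to 1.58) and by 0.59 (-0.13 to 1.30) without control replicate 3, with its 2 lowest control arrays, replicates 3 and 1, at 6.87 and 7.66. The mean level of the cholesterol list was 7.12 and 7.14 on control replicates 1 and 3, against 7.77 to 8.30 on the other 8 arrays. Without control replicate 3 the list was still higher in 14 of 14 with a median of 0.26. Without control replicate 5 the median was 0.42, and without CR replicate 2 it was 0.37, each with 14 of 14 higher. Without control replicates 1 and 3 the list was higher in 11 of 14 with a median of 0.12. Those 2 arrays were the lowest and were chosen after seeing the data, so a smaller difference follows from the choice. In fatty acid and triglyceride synthesis 13 of 17 were higher, with a median of 0.18, which was 0.12 without control replicate 1, 0.28 without control replicate 5 and 0.084 without control replicates 1 and 3. Elovl6, which lengthens saturated fatty acids, differed by 0.65 (95% interval 0.18 to 1.12) and by 0.36 without control replicates 1 and 3.

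In mitosis, 20 of 21 tested genes had a higher mean under CR, with a median of 0.33. Cenpf, a kinetochore protein, read 8.32, 7.85, 8.72, 8.42 and 8.22 under CR and 7.59, 7.63, 6.02, 8.11 and 8.60 on control diet. Control replicate 3 was the lowest array and control replicate 5 lay above 4 of the 5 CR arrays. The difference was 0.72, and it was 0.33 without control replicate 3 and 0.19 without control replicates 1 and 3. The proliferation marker Mki67 differed by 0.38, by 0.15 without control replicate 3 and by -0.08 without control replicates 1 and 3. The mitosis list as a whole had a median of 0.18 without control replicate 3, of 0.52 without control replicate 5, and of 0.012 with 11 of 21 higher without control replicates 1 and 3. In adult mice at ZT20 the mitosis median was -0.33. DNA replication was higher in 13 of 26 genes with a median of 0.0068, and the split moved with single arrays. It was 2 of 26 higher (median -0.11) without control replicate 1, 4 of 26 (-0.070) without CR replicate 3, 21 of 26 (0.066) without CR replicate 2 and 22 of 26 (0.12) without control replicate 5. Without control replicates 1 and 3 it was 3 of 26. Gins2, a subunit of the replicative helicase, differed by -0.19 (95% interval -0.55 to 0.17).

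Of suprabasal and cornified genes, 13 of 17 were higher, with a median of 0.23. The median was 0.26 without control replicate 5, 0.18 without control replicate 3 and 0.094 without control replicate 1. It was 0.033 without control replicates 1 and 3. The list's mean level was 7.89 and 7.94 on those arrays, and 8.28 to 8.61 on the other 8. Elovl4, which makes the very long fatty acids of barrier lipids, read 9.02, 9.09, 9.53, 9.66 and 9.60 under CR and 7.98, 8.63, 8.24, 8.46 and 9.24 on control diet. One control array, replicate 5, lay within the CR range, and the difference of 0.87 (95% interval 0.20 to 1.55) was 0.60 without control replicates 1 and 3. Sbsn (suprabasin) differed by 0.39, and by 0.19 without control replicate 3, which at 10.3 was the lowest array. The basal epidermal list stayed near 0, with 5 of 12 higher and a median of -0.0052. Whether the cell cycle stage or the share of differentiating cells on control replicates 1 and 3 takes part in these differences was not tested, and in such bulk samples fewer cells of a type and less RNA per cell cannot be told apart.

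**Figure D5:**
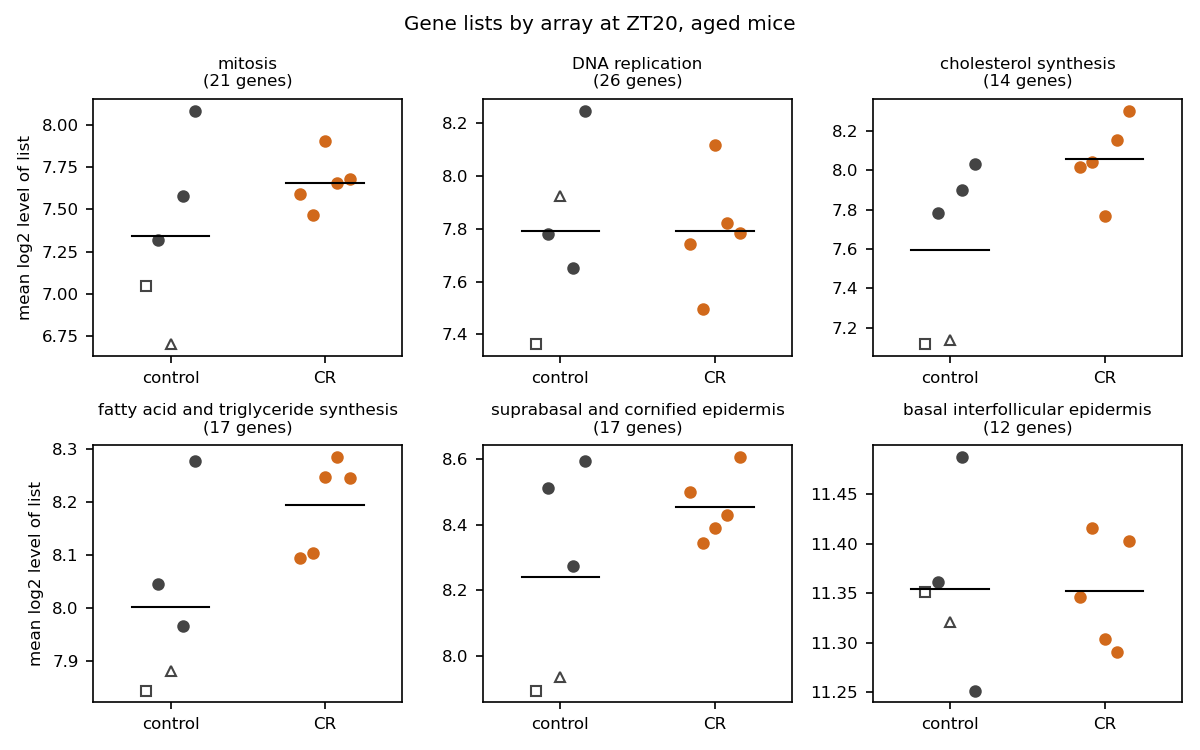
Mean log2 level of 6 gene lists on each control (grey) and CR (orange) array of aged mice at ZT20, with group means as bars; the open square is control replicate 1 and the open triangle control replicate 3. For mitosis, cholesterol synthesis, fatty acid and triglyceride synthesis and suprabasal genes these are the 2 lowest arrays of the 10, while the basal list spans 11.25 to 11.49 on all 10 arrays.

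Genes of the oxidative stress response were lower in 11 of 17, with a median of -0.049 that ran from -0.081 without CR replicate 3 to -0.017 without control replicate 5. The 4 genes with an unadjusted p under 0.05, all lower, became 2 without control replicate 3. Over all genes 1.15% were lower at that p. Gsta4, a glutathione transferase that clears lipid aldehydes, read 4.90, 5.22, 4.80, 5.05 and 5.22 under CR and 5.45, 5.41, 5.57, 5.61 and 5.42 on control diet. The groups did not overlap, and the difference was -0.45 (95% interval -0.73 to -0.17) and -0.43 without control replicate 3. Its signal was not far above the filter on dim genes, at 4.73. Gstm1, a second transferase, differed by -0.38 and by -0.39 without that array. Of TGF-beta and BMP targets 8 of 9 were lower with a median of -0.10, and of -0.28, -0.25 and -0.30 without CR replicate 2, CR replicate 5 and control replicate 3. Among them Id2 differed by -0.41 (95% interval -0.76 to -0.06), and Smad7 by -0.55, or -0.31 without control replicate 3, where its level was 7.02 against 5.23 to 5.91 on the other 9 arrays. The unfolded protein response was higher in 14 of 17 with a median of 0.18, and in 11 of 17 with a median of 0.088 without control replicate 3.

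In fatty acid oxidation and PPAR targets 15 of 20 were lower, with a median of -0.060. Single arrays moved it from -0.014, with 11 of 20 lower, without CR replicate 1 to -0.12, with 18 of 20 lower, without CR replicate 3, and array weights gave 10 of 20 lower. Angptl4, a secreted inhibitor of lipoprotein lipase induced on fasting, was at 9.37 on control replicate 1 and at 6.02 to 7.41 on the other 9 arrays. No other array came within 1 log2 unit of it. Eci2, an isomerase of fatty acid oxidation, was also highest there, at 9.42 against 7.62 to 8.63.

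Among named genes of no list whose groups did not overlap, chosen after their values were seen, 4 were lower and 2 higher under CR. Over all tested genes 121 (0.904%) did not overlap, 37 higher and 84 lower, where random splits give a share of 0.00794. The genes named here were picked from those 121, so the split of 4 and 2 follows from the choice. Itga2b, an integrin subunit, lay between 6.81 and 7.01 under CR and between 7.13 and 7.50 on control diet (difference -0.48, and -0.44 without control replicate 3). Cdh13 (T-cadherin) lay between 9.35 and 9.70 under CR and between 9.92 and 10.33 on control diet (difference -0.47, and -0.40 without that array). Wwox, an oxidoreductase with WW domains, differed by -0.51, and Grm4, a glutamate receptor, by -0.59. The adult differences of Wwox and Grm4 at ZT20 were -0.58 (SE 0.17) and -0.45 (SE 0.20). Cenpt, a centromere protein, lay between 7.59 and 7.91 under CR and between 7.15 and 7.53 on control diet, a difference of 0.42. Dmkn (dermokine), a secreted protein of the differentiating epidermis, lay between 11.82 and 11.91 under CR and between 11.16 and 11.79 on control diet, a difference of 0.28, and of 0.17 without control replicate 3, its lowest array. None of the 6 passed the test.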

How the data were processed

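Expression was measured on Affymetrix mouse arrays, 1 per sample. RNA was extracted with TRizol, and 25 ng was amplified over 17 cycles, per the labels' protocols. The deposited values are log2 signals of 45140 probe sets, made with RMA per the submitters' processing notes; other settings are not given in the sources used here. Array hybridisation depth has no count, so the number of arrays limits precision (median SE of a difference 0.153).

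Probe sets with exactly 1 gene symbol (28898) were kept, 551 with several and 15588 with none were left out, and the brightest per gene gave 17097 genes. Genes with a mean of at least 4.73 (the 30th percentile) were tested, 13383 in all. One limma 3.58.1 model (R 4.3.3) gave each of 24 groups a mean, with 1 spread shared by all arrays, and Benjamini-Hochberg adjusted p-values were taken over all tested genes. On simulated data for CR against control at ZT20, aged mice, with 13383 genes and 200 changed, 1.50% of changes of 0.3, 56.8% of 0.6 and 91.8% of 1 log2 were found. Of the calls at 0.3, 18.2% were false. The noise was normal and independent between genes, with no outlying array such as control replicate 3. Recovery with fewer changed genes was not simulated.

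The comparison and its 40 gene lists (559 genes, 451 tested) were chosen with earlier results of these data known. Named were the called genes (by rule up to 12 rises and 12 falls, of which there were 2) and all tested clock genes. The 2 genes next in order of p were added. Of each other list up to 3 called genes were named or, with none called, up to 2 of smallest p. The 4 genes of smallest p were named for the aged and adult difference, and the called genes for the other times. Alternatives were ZT20 arrays alone, replicate blocks, other filters, centring, array weights, probe set means, covariates and leaving out each array.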

Additional observations from a re-analysis of the deposited data

Results flagged for a closer look

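One array stood far from the other 4 of its group in 5 of 72 groups of values looked at (36 genes in 2 diets); chance gives about 1 in 20. Of the 5, 4 were on control replicate 3: Sphk2 at 9.59, Dbp at 8.16, Sbsn at 10.25 and Smad7 at 7.02. The fifth was Itga2b on CR replicate 2, at 7.01.

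The diet effect at ZT20 differed from the mean of the effects at the other times of the aged mice, by the test of the difference, for Tef at -0.91 and Per2 at -0.99. Neither passed without control replicate 3.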

How the results depend on the processing

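CR against control at ZT20 in aged mice gave 2 calls. The count was 0 with the 10 arrays of ZT20 alone (567 genes, 4.24%, at an unadjusted p under 0.05; smallest limma adjusted p 0.717), 0 with those arrays and the replicate block, 0 for those arrays without control replicate 3, 0 leaving out control replicates 1 and 3, and 9 with array weights (1 higher and 8 lower). Leaving out 1 array at a time gave 0 to 3 calls: 0 without control replicate 3, and 1 without CR replicates 1, 2, 3 or 5. With the random replicate block, whose correlation was 0.046, 2 genes were called. Deviations of same-numbered arrays correlated at -0.35 to 0.22, and no CR array correlated best with its own number. Whether the shared numbers follow collection days cannot be told from these values, since a weak effect of the day could leave them as they are. For the diet effect at ZT20 against the other times the count of 2 became 6 with array weights, 0 leaving out control replicates 1 and 3, and 0 to 3 leaving out 1 array, with 0 without control replicate 3 and 1 without CR replicates 3 or 5. For adult mice the count of 0 became 42 with array weights (12 higher and 30 lower). The 121 genes without overlap became 78 with the 50th percentile filter, 206 without control replicate 3 and 485 leaving out control replicates 1 and 3. With fewer arrays more genes separate by chance. The settings without control replicates 1 and 3, for the 10 arrays without control replicate 3, and for overlap without control replicate 3 were chosen after seeing the data. The sign turned for Rora (0.0002049) and Per1 (0.0077) without CR replicate 4, with ranges of -0.12 to 0.0002049 and -0.15 to 0.0077 over the arrays left out in turn, and for Mki67 (-0.080) leaving out control replicates 1 and 3. The cause was not tested.

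Tef was past the threshold in 18 of 25 settings, with differences of -0.90 to -0.45, and Per2 in 18, with -1.28 to -0.56. Leaving out 1 array at a time, each was past it in 7 of 10. Over 36 genes, 841 of 865 comparisons kept their direction and their side of the threshold. Only Tef and Per2 started past it, so for the other genes this count mostly reflects staying uncalled. With 5 arrays a group, differences of 0.3 log2 are seldom found.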
